A study of Rattus norvegicus with 8 samples.

Results

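The 10 genes described here encode subunits of the transcription factor AP-1 (Jund, Jun, Junb, Fos, Fosb, Fosl1 and Fosl2) and 3 other products of immediate early genes (Egr1, Atf3 and Ier2), measured in rat extraocular muscle under excess thyroid hormone. Every probe set whose single gene symbol in the platform annotation was one of these names was taken, which gave 16 probe sets of the 31099 on the array and 10 of the 14217 genes it names. A probe set is the group of short probes that reports a transcript. The tested rats, called hyperthyroid, were 4 adult Sprague-Dawley rats given intraperitoneal triiodothyronine (T3, the active thyroid hormone) at 25 µg per 100 g of body weight every second day for 6 weeks, with tissue taken 24 hours after the last dose. The controls were 4 untreated adult rats of the same strain, and nothing in the sources used here mentions a vehicle injection. Rats of both groups started at 200 ± 40 g. By the sources used here, each rat's dissected eye muscles gave 1 array. The labels number the hyperthyroid rats 1, 2, 3 and 5, and the control rats 7, 8, 9 and 11.

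AP-1 is a dimer of a JUN protein with a FOS, ATF or another JUN protein, joined through a leucine zipper and bound to DNA by the adjoining basic region. Most of these genes are immediate early genes: a stimulus such as a growth factor, stretch, contraction or stress switches them on within minutes, without new protein synthesis, and their transcripts are short-lived. Jund is the exception in most tissues, since it is transcribed steadily and is often the prevailing JUN protein of resting cells. In skeletal muscle, Fos, Egr1 and Atf3 are known to respond to contractile activity, injury and handling of the tissue.

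The promoter of Jund is shown because Jund alone among the 10 genes passed the adjusted test, with 1 array left out, and stretches of Egr1 and Ier2 are shown as the other members whose promoter windows held a matching motif. The sequences are RefSeq's, build GRCr8, from 250 bases before to 50 after the annotated gene start, and 7 of the 10 genes had an entry. Capitals mark the cyclic AMP response element TGACGTCA, bound by CREB, ATF and JUN dimers, in Jund and Ier2, and the CArG box, bound by serum response factor, in Egr1. The Jund window lies at chr16:18769722-18770021 on the minus strand, the Egr1 stretch at chr18:26736958-26737019 and the Ier2 stretch at chr19:40399292-40399329, both on the plus strand.
Jund: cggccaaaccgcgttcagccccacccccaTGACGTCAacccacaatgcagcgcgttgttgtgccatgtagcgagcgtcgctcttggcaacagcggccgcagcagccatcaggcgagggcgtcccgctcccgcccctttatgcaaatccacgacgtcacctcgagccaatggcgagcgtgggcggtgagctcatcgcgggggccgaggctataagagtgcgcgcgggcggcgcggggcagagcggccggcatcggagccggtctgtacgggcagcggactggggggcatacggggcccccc
Egr1: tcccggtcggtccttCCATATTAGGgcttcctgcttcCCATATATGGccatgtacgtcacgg
Ier2: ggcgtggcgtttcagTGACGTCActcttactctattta

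Both strands of every window of 300 bases were searched for 3 motifs, of which none contains another. TGACGTCA occurred in 2 of the 7 member windows, ending 214 bases before the start of Jund and 59 before that of Ier2, and in 1.83% of 33469 windows of all genes. The CArG box occurred in 1 of the 7, Egr1, which held 2 copies, and in 1.64% of all windows. The classical AP-1 site TGACTCA occurred in 0 of the 7 and in 4.63% of all windows. A match describes the letters of the window, and a missing match says only that these letters are not in it.

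The array labelled hyperthyroid 5 stood apart from the other 7. Its Myh13 signal, for the myosin heavy chain that marks extraocular muscle, was 4.17, against 6225 to 9339.57 on the other hyperthyroid arrays and 5430.4 to 9043 among controls. The myosin heavy chain genes Myh3 and Myh8 stood at 165 and 54.2 on it, against at least 6412 and 7599 on any other array. The summed signal of the 3 trunk and limb homeobox genes was 1044 on it, against at most 128 on any other array. Differences are therefore given on all 8 arrays and without hyperthyroid 5. The tissue that hyperthyroid 5 came from was not tested, and its label gives extraocular muscle. Hyperthyroid 2 had the next lowest mean correlation with the other arrays (0.855, against 0.848 for hyperthyroid 5 and at least 0.877 for the rest) and was kept. RNA shortening, read as 3 prime over 5 prime Gapdh signal, was 3.91, 4.40, 2.18 and 1.44 on the hyperthyroid arrays and 1.67 to 1.97 on the controls. Median signals ran from 49.2 to 58.5 in hyperthyroid and from 47.8 to 54.8 in control arrays.

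Of the 16 probe sets, 10 passed the filter on dim signal and were tested, covering 8 genes. Fosb and Fosl2 had no probe set above the filter, which kept 18625 probe sets at a mean signal of at least 28.2. On all 8 arrays limma, a moderated linear model fitted over every probe set, called 0 of the 10 member probe sets at an adjusted p under 0.05, and 0 of all 18625 (0%). At an unadjusted p under 0.05, 3 of the 10 were higher (Jund, Fos and Egr1) and 0 lower, where 6.25% of all probe sets were higher and 5.3% lower. Without hyperthyroid 5 the adjusted test called 1 of the 10, Jund, where it called 0.156% of all probe sets. In that fit the unadjusted count was 1 higher and 0 lower, beside 7.59% and 7.66% of all probe sets. The 2 groups did not overlap for 2 of the 10, Jund and Fosl1, with or without hyperthyroid 5, and 4.33% of all probe sets lay wholly higher on all 8 arrays and 8.28% without hyperthyroid 5. Of these 2, Fosl1 passed the filter only through the hyperthyroid arrays.

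The bright Jund probe set, 1393138_at, was higher on every hyperthyroid array than on any control array. Its signals were 6989.95, 6428, 6447 and 5929.7 on hyperthyroid 1, 2, 3 and 5, against 3680.03, 3624, 3995 and 3326 on control 7, 8, 9 and 11. The lowest hyperthyroid value lay well above the highest control value, and the arrays of each group lay close together. The means were 6448 ± 433 in hyperthyroid and 3656 ± 274 in control muscle (SD, n = 4 each), a log2 difference of 0.82 ± 0.12 (SE; 95% interval 0.56 to 1.07), or 1.76-fold. This was the smallest p of the 18625 probe sets, but it did not pass after adjustment (limma, adjusted p = 0.151). A two-sided exact permutation test of this single probe set over the arrays gave p = 0.0286, the smallest that 4 against 4 can give. Any probe set whose groups do not overlap gets this p, as did the 4.33% of all probe sets that lay wholly higher. The permutation test therefore adds nothing to the lack of overlap stated above.

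Without hyperthyroid 5, the bright Jund probe set rose by a log2 difference of 0.86 ± 0.11 (SE; 95% interval 0.62 to 1.09), or 1.81-fold, with an adjusted p of 0.0166 in limma. The hyperthyroid mean was then 6621 ± 319 (SD, n = 3), against 3656 ± 274 in controls (SD, n = 4), and 2 other probe sets of the array had a smaller p. That call was lost without hyperthyroid 1 (adjusted p = 0.0967), control 8 (0.109), control 9 (0.0553) or control 11 (0.0596), without a mean-variance trend (0.315) and after adjusting for that Gapdh ratio (0.646), while the difference stayed between 0.68 and 0.97 over the 18 alternatives run. The difference came from 1 of 3 Jund probe sets, and it is the one for which the platform annotation lists no accession, as it does for 577 of 20826 probe sets with a single symbol. The match of this probe set to Jund rests on the annotation's symbol and gene number alone. Over the 8 arrays its mean signal, taken on the log2 scale, was 4846, against 15.3 and 9.93 for the other 2.

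The other 2 Jund probe sets were too dim to test. Probe set 1387762_s_at, listed against the Jund reference transcript, had signals of 39.0, 24.5, 5.62 and 30.1 on hyperthyroid arrays and 14.7, 3.21, 15.8 and 24.5 on controls. Its groups overlapped, and the fit without a filter put the difference at 0.78 ± 0.94 (log2 ± SE), and at 0.59 ± 1.08 without hyperthyroid 5. Probe set 1375768_at had 2.89, 6.61, 52.2 and 17.9 on hyperthyroid arrays and 9.35, 4.47, 2.40 and 52.5 on controls, with a difference of 0.44 ± 1.17 (log2 ± SE), and of 0.23 ± 1.30 without hyperthyroid 5. On all 8 arrays their intervals of -1.23 to 2.79 and -2.06 to 2.95 contain both 0 and the difference of the bright probe set, so these 2 could show neither presence nor absence of a change of that size. In a mixed tissue, more transcript per cell and more cells of a type that transcribes the gene cannot be told apart.

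**Figure D1:**
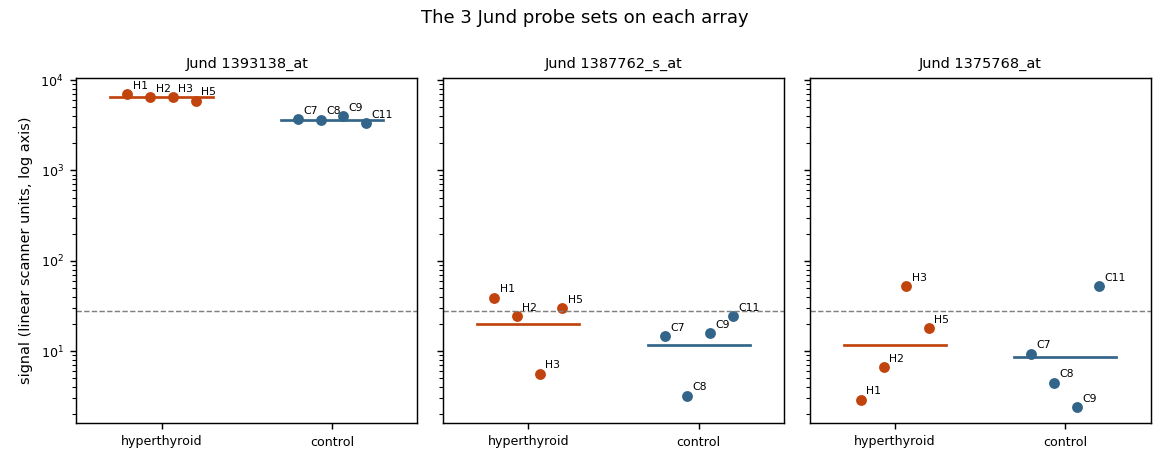
Signal of the 3 Jund probe sets (linear scanner units on a log axis) in 4 hyperthyroid (H) and 4 control (C) arrays, with a point per array and a bar at each group's mean of log2 values; the dashed line is the filter level of 28.2. The groups are apart on 1393138_at, at 5929.7 to 6989.95 in hyperthyroid and 3326 to 3995 in control muscle, and overlap on the other 2.

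Jun, the JUN protein with the strongest activating domain, had 3 probe sets above the filter, and none passed. The brightest, 1369788_s_at, had signals of 675, 559.8, 529 and 875 on hyperthyroid 1, 2, 3 and 5, against 486, 591, 457 and 552 on the controls. Hyperthyroid 5 was highest, and hyperthyroid 2 and 3 lay inside the control range. Its log2 difference was 0.32 ± 0.18 (SE; adjusted p = 0.509 in limma), and 0.17 ± 0.15 without hyperthyroid 5. The suffix _s marks, in the array maker's naming, probes that can match more than 1 transcript.

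The 2 dimmer Jun probe sets are listed against the same source sequence, and their differences were unlike. Probe set 1389528_s_at had 271, 284, 229 and 411 on hyperthyroid arrays and 167, 291, 203 and 220.4 on controls, with a difference of 0.44 ± 0.23 (log2 ± SE), and of 0.27 ± 0.21 without hyperthyroid 5. Probe set 1374404_at had 138, 147, 111 and 197 on hyperthyroid arrays and 126, 148, 139.7 and 169.9 on controls, with a difference of 0.00 ± 0.22, which turned to -0.15 ± 0.21 without hyperthyroid 5. On both, the groups overlapped and hyperthyroid 5 was the highest array.

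Junb, a JUN protein that can restrain Jun, stood at 73.6, 44.0, 78.8 and 60.6 on hyperthyroid arrays and at 58.1, 21.0, 67.0 and 45.3 on controls. The groups overlapped, and control 8 was the lowest array by a wide gap. The log2 difference was 0.52 ± 0.43 (SE; adjusted p = 0.654 in limma), and 0.53 ± 0.48 without hyperthyroid 5, but 0.16 without control 8.

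The FOS proteins cannot bind DNA as dimers of their own and need a JUN partner. Fos, the founding member, had signals of 195, 97.1, 129 and 148 on hyperthyroid arrays on its brighter probe set, against 76.9, 74.5, 134 and 63.4 on controls. Only control 9 among the controls reached into the hyperthyroid range. The means were 142 ± 40.9 in hyperthyroid and 87.1 ± 31.6 in control muscle (SD, n = 4 each), a log2 difference of 0.72 ± 0.30 (SE; limma unadjusted p = 0.0323, adjusted p = 0.396). Without hyperthyroid 5 it was 0.69 ± 0.33 (adjusted p = 0.346). The dimmer Fos probe set ran from 5.27 to 29.3 on hyperthyroid arrays and from 1.82 to 25.3 on controls, below the filter, at 1.08 ± 1.03 (log2 ± SE) and at 0.98 ± 1.17 without hyperthyroid 5.

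Fosl1, which encodes Fra-1, a FOS protein without the strong activating domain of Fos, was the second member without overlap. Its signals were 69.4, 66.0, 37.6 and 44.7 on hyperthyroid arrays and 6.83, 32.5, 23.1 and 36.9 on controls. Hyperthyroid 3 and control 11 were separated by less than 1 unit of signal, and control 7 lay far below the rest. The log2 difference of 1.34 ± 0.62 (SE; 95% interval -0.02 to 2.69) did not pass (limma, adjusted p = 0.440), and it had the widest interval of the tested members. It was 1.41 ± 0.72 without hyperthyroid 5 (adjusted p = 0.379), but 0.80 without control 7 and 0.62 with 32 added to the signals before log2. Its mean over all arrays, taken on the log2 scale, was 33.1, just above the filter level of 28.2, while its control mean of 20.9 lay below it. Fosl1 thus passed only through the hyperthyroid arrays, and its difference and lack of overlap are given as description.

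Fosb and Fosl2 stayed below the filter, and their signals spread widely between arrays. Fosb, the FOS protein that accumulates in a truncated form in chronically stimulated tissue, ran from 6.44 on hyperthyroid 1 to 64.4 on hyperthyroid 2, and from 0.952 to 27.0 on controls, a difference of 1.75 ± 1.19 (log2 ± SE), or 2.11 ± 1.30 without hyperthyroid 5. The 2 probe sets of Fosl2, which encodes Fra-2, pointed in opposite directions. Probe set 1387530_a_at had 34.3, 6.88, 7.11 and 4.97 on hyperthyroid arrays and 53.5, 48.1, 11.1 and 47.7 on controls, at -1.84 ± 0.88 (log2 ± SE, fit without a filter, adjusted p = 0.519), and -1.52 ± 0.93 without hyperthyroid 5. Probe set 1383860_at had 8.82, 4.82, 7.54 and 37.0 on hyperthyroid arrays and 2.76, 6.96, 1.69 and 7.59 on controls, at 1.40 ± 0.96 (adjusted p = 0.657), and 0.79 ± 1.01 without hyperthyroid 5. At these signals neither direction could be told from the spread between arrays.

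**Figure D2:**
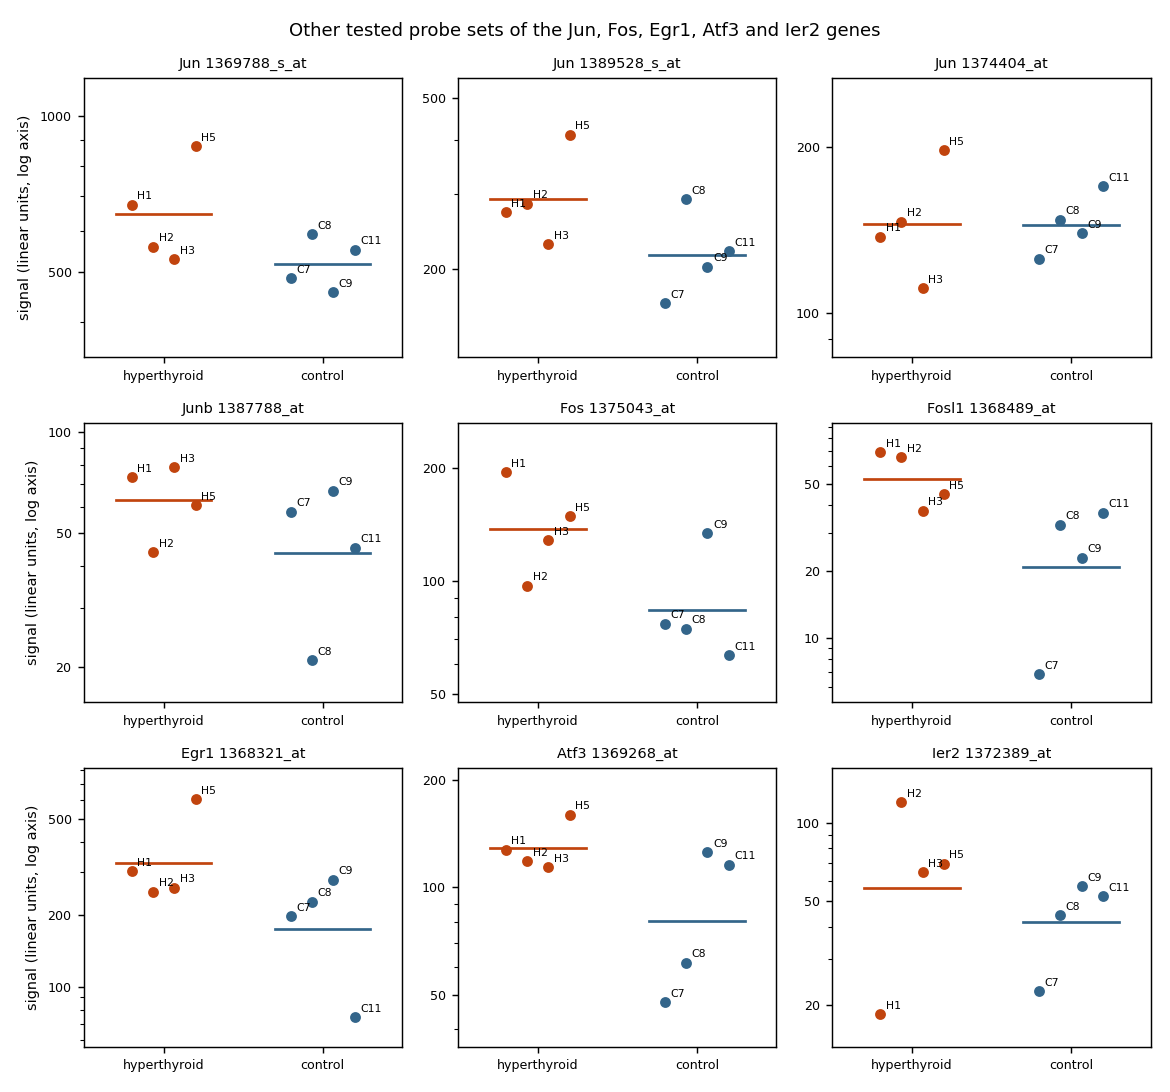
Signal of the other 9 tested member probe sets (linear units, log axis) in hyperthyroid (H) and control (C) arrays, with a point per array and a bar at each group's mean of log2 values. Only Fosl1 shows groups without overlap, at 37.6 to 69.4 against 6.83 to 36.9, and hyperthyroid 5 is the highest array for Egr1, Atf3 and all 3 Jun probe sets.

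Egr1 is a zinc finger factor induced through serum response factor. The capitals in the stretch shown above match the CArG box by their letters, and binding was not measured here. Egr1 had signals of 303, 249, 259 and 605 on hyperthyroid arrays and 197, 226, 279 and 74.6 on controls. Hyperthyroid 5 lay far above and control 11 far below all others, and between these extremes the groups overlapped. The means were 354 ± 169 in hyperthyroid and 194 ± 86.8 in control muscle (SD, n = 4 each), a log2 difference of 0.92 ± 0.40 (SE; limma unadjusted p = 0.0425, adjusted p = 0.416). Without hyperthyroid 5 the difference was 0.63 ± 0.36 (unadjusted p = 0.111), and without control 11 it was 0.51.

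Atf3, a stress-induced bZIP factor that pairs with JUN proteins and often represses, had 127, 118, 114 and 159.6 on hyperthyroid arrays and 47.6, 61.4, 125 and 116 on controls. The controls formed a lower pair, control 7 and 8, and a higher pair, control 9 and 11, which lay inside the hyperthyroid range. The difference was 0.67 ± 0.33 (log2 ± SE; adjusted p = 0.459 in limma), and 0.57 ± 0.35 without hyperthyroid 5, but 0.42 without control 7. Ier2, a small nuclear protein of the immediate early response, had 18.5, 119, 64.8 and 69.5 on hyperthyroid arrays and 22.7, 44.2, 57.3 and 52.2 on controls. Hyperthyroid arrays held both its lowest and its highest value, and the difference was 0.43 ± 0.57 (log2 ± SE; adjusted p = 0.786 in limma), and 0.33 ± 0.63 without hyperthyroid 5. It was 0.07 without hyperthyroid 2, 0.97 without hyperthyroid 1 and 0.14 without control 7.

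**Figure D3:**
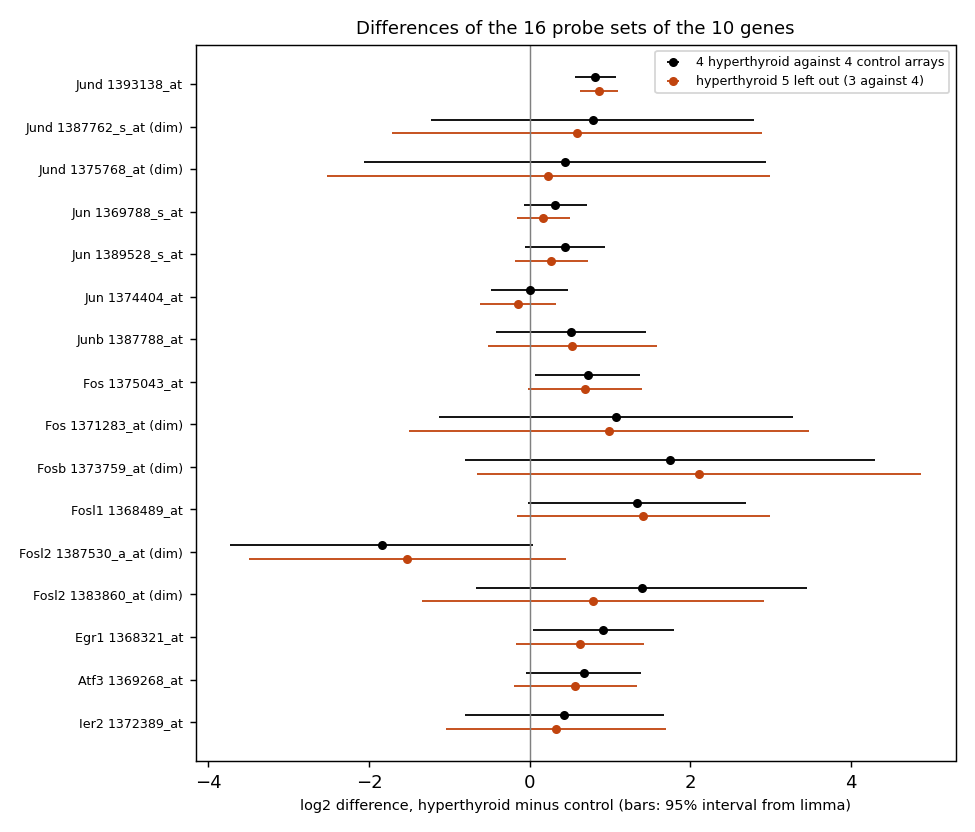
Log2 difference, hyperthyroid minus control, of all 16 member probe sets with its 95% interval from limma, on all 8 arrays (black) and with hyperthyroid 5 left out (orange); probe sets marked dim come from the fit without a filter. The interval of Jund 1393138_at, 0.56 to 1.07 on all 8 arrays, is the narrowest of the 16, and those of the dim probe sets all contain 0.

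On all 8 arrays 10 of the 10 tested probe sets had a higher hyperthyroid mean, with a median log2 difference of 0.59, where 52.5% of all 18625 probe sets were higher and their median was 0.03. Without hyperthyroid 5 it was 9 of 10 with a median of 0.55, beside 54.2% and 0.04. Leaving out Fosl1, which passed the filter only through the hyperthyroid arrays, it was 9 of 9 with a median of 0.52 on all 8 arrays, and 8 of 9 with 0.53 without hyperthyroid 5. The filter also worked the other way. The Fosl2 probe set 1387530_a_at, with control signals of 53.5, 48.1, 11.1 and 47.7, was left out only through its low hyperthyroid arrays. Its difference was -1.84 ± 0.88 (log2 ± SE, fit without a filter), so the shared direction describes the tested probe sets only. With quantile normalization or with centring of the arrays on their median the count on all 8 arrays was 9 of 10, the exception being the Jun probe set 1374404_at. Centring on the median of every probe set moved the median of all tested probe sets to -0.09 on all 8 arrays and to -0.14 without hyperthyroid 5. It also changed the share of higher ones among probe sets at an unadjusted p under 0.05, which was 54.1% as deposited and 25.9% after centring. Relative to the median of all tested probe sets, Jund stood at 0.79 on all 8 arrays as deposited, which centring cannot change, and at 0.89 after quantile normalization. The 10 probe sets share arrays, and 3 of them report Jun, so these counts are a description and not independent trials.

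The members did not peak on the same animal. None of the 10 probe sets had its highest value on a control array. Hyperthyroid 5 was highest for 5 (the 3 of Jun, Egr1 and Atf3), hyperthyroid 1 for 3 (Jund, Fos and Fosl1), hyperthyroid 2 for Ier2 and hyperthyroid 3 for Junb. Over all 18625 probe sets the highest value fell on hyperthyroid 1, 2, 3 and 5 in 14.8%, 18.7%, 10.4% and 17.1%. Hyperthyroid 5 exceeded every control on 9 of the 10 member probe sets and on 27.3% of all. For hyperthyroid 1 it was 7 of the 10 and 28.6%, for hyperthyroid 3 it was 4 and 25.5%, and for hyperthyroid 2 it was 3 and 30.2%. The lowest of the 8 arrays was control 7 for 3 member probe sets and control 11 for 3, against 12.3% and 13.7% of all. Fosl1, which passed the filter only through the hyperthyroid arrays, is part of each count above every control. It is also part of the counts for hyperthyroid 1 as highest and control 7 as lowest array. Leukocyte markers, 6 of the 7 listed being on the array, summed to 690 to 2712 in hyperthyroid muscle and to 863 to 1559 in controls, with hyperthyroid 5 highest. The 6 fibroblast markers summed to 12759 to 41804 in hyperthyroid muscle, again highest on hyperthyroid 5, and to 19184 to 36612 in controls. The single fibroblast markers differed, since on hyperthyroid 5 Dcn, Col1a1 and Col1a2 were highest of all arrays but Pdgfra (604) and Lum (931) lowest. Col3a1 was highest on control 11. The 4 endothelial markers present summed to 1345 to 1735 in hyperthyroid and 1120.03 to 1493 in control muscle. The 5 epithelial markers summed to 19.4 to 364 in hyperthyroid and 341 to 913 in control muscle. Oligodendrocyte and astrocyte markers, 3 of the 4 listed, summed to 60.3 on hyperthyroid 2 and 23.7 on hyperthyroid 5, to 3674 and 2932 on hyperthyroid 1 and 3, and to 2080.3 to 4807 in controls. The 4 slow fibre markers summed to 35889 on hyperthyroid 5, to 5651 to 12506 on the other hyperthyroid arrays and to 6416 to 9154 in controls. Over 11 marker lists, the smallest exact permutation p was 0.0571, for endothelium and epithelium, and 0.314 after adjustment. The part of these cell types and of the Gapdh ratio in the members' values was not tested.

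**Figure D4:**
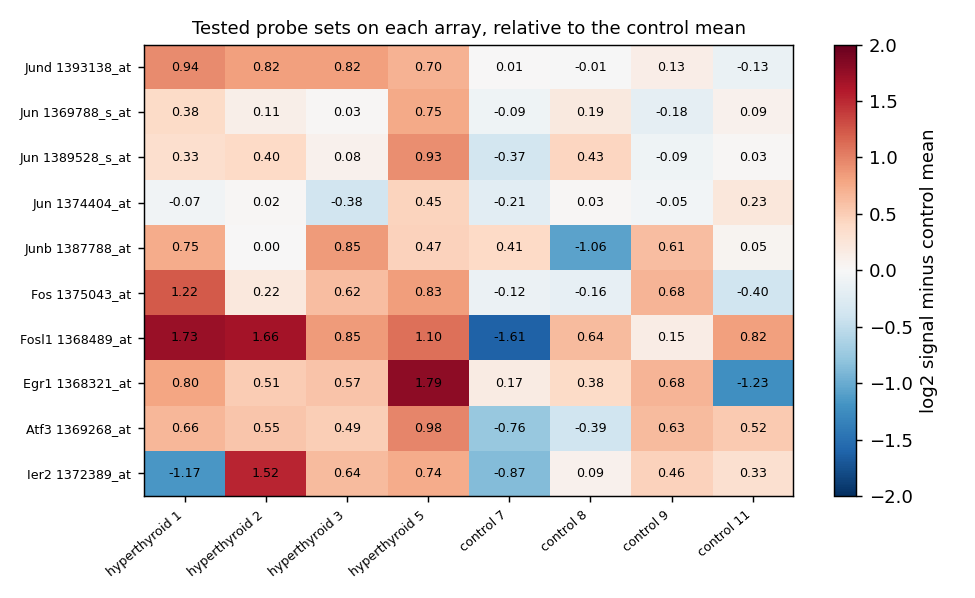
Log2 signal of the 10 tested member probe sets on each array, minus the mean of the 4 controls. Jund is the only row with hyperthyroid values in a narrow band (0.70 to 0.94) clear of the controls (-0.13 to 0.13), while Egr1 ranges from 1.79 on hyperthyroid 5 to -1.23 on control 11 and Ier2 from 1.52 on hyperthyroid 2 to -1.17 on hyperthyroid 1.

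Other genes around AP-1 were read as gene lists, with 1 probe set per gene, and no gene of any list passed the adjusted test in either fit. Of 34 tested other immediate early genes, 5 were higher and 3 lower at an unadjusted p under 0.05 on all 8 arrays (median log2 difference 0.09), where 6.34% of all 10446 genes were higher and 5.83% lower (median 0.01). Mcl1, which protects cells from apoptosis, had 1287, 1023, 1154 and 2053 on hyperthyroid arrays and 814, 664, 849 and 696 on controls, at 0.82 ± 0.20 (log2 ± SE; adjusted p = 0.249 in limma), and 0.61 ± 0.14 without hyperthyroid 5 (adjusted p = 0.0941). Klf10, a zinc finger factor induced by TGF-beta, had 483, 277, 395 and 548 on hyperthyroid arrays and 238, 229.7, 251 and 259.5 on controls, at 0.76 ± 0.21 (adjusted p = 0.275), and 0.62 ± 0.20 without hyperthyroid 5 (adjusted p = 0.181). On both, the groups did not overlap, although the second Mcl1 probe set stood at 0.14 on all 8 arrays and at -0.16 without hyperthyroid 5. Klf2, a factor of vascular endothelium induced by flow, stood at 0.75 ± 0.26 on all 8 arrays and at 0.84 ± 0.26 without hyperthyroid 5 (adjusted p = 0.332 and 0.177). Without hyperthyroid 5 the counts at an unadjusted p under 0.05 were 5 higher and 2 lower, where 7.85% of all genes were higher and 8.24% lower.

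Nr4a3, an orphan nuclear receptor induced in muscle by exercise, had the smallest p among those with a lower hyperthyroid mean. Its signals were 319.99, 289, 265 and 205 on hyperthyroid arrays, against 579, 289, 873 and 522 on controls, at -0.98 ± 0.29 (log2 ± SE; adjusted p = 0.285 in limma), and -0.86 ± 0.29 without hyperthyroid 5. Hyperthyroid 1 and 2 lay above or level with control 8, and the other 3 controls lay above all hyperthyroid arrays. Its other tested probe set stood at -1.31, and a dim one at 1.48 (-1.13 and 1.41 without hyperthyroid 5). Of the 34 tested genes of this list, 22 had a higher and 12 a lower hyperthyroid mean.

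Among 13 tested partners of AP-1 with a bZIP domain, 1 was higher and 0 lower at an unadjusted p under 0.05 on all 8 arrays (median 0.11). That was Mafk, a small MAF protein, at 0.56 ± 0.21 (log2 ± SE; adjusted p = 0.352 in limma), whose groups did not overlap, and at 0.45 ± 0.22 without hyperthyroid 5. In the fit without it 2 genes were higher and 1 lower at that level. Atf4, the factor of the integrated stress response, stood at -0.37 ± 0.13 without hyperthyroid 5, and at -0.22 ± 0.17 on all 8 arrays. Its relative Atf5 stood at 0.47 ± 0.18, and at 0.27 ± 0.22 on all 8 arrays. The small MAF protein Mafg stood at 0.63 ± 0.26, and at 0.46 ± 0.27 on all 8 arrays. Of 16 tested kinases and serum response regulators, 0 reached an unadjusted p under 0.05 in either limma fit, and the smallest p on all 8 arrays was that of Srf, serum response factor itself, at 0.39 ± 0.18 (unadjusted p = 0.0527, adjusted p = 0.440), or 0.31 ± 0.18 without hyperthyroid 5. There the smallest p was that of Elk1, a cofactor of serum response factor, at -0.43 ± 0.24, against -0.33 ± 0.23 on all 8 arrays. Another tested Elk1 probe set stood at 0.34 without hyperthyroid 5 and at 0.24 on all 8 arrays. A dimmer tested Srf probe set, with a mean signal of 36.0, stood at 1.71 without hyperthyroid 5 and at 1.62 on all 8 arrays.

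Of 7 tested genes for JUN turnover and JunD regulation, Cops5, a signalosome subunit that binds Jun and JunD, was the only one at an unadjusted p under 0.05 on all 8 arrays. It stood at -0.37 ± 0.15 (log2 ± SE; adjusted p = 0.396 in limma), at 730.5 to 1136 in hyperthyroid and 1085 to 1269 in control muscle. Without hyperthyroid 5 it was at -0.48 ± 0.13, and 3 of the 7 were higher and 1 lower at an unadjusted p under 0.05, where 7.85% of all genes were higher and 8.24% lower. Among the 3 were the ubiquitin ligase genes Fbxw7 and Cop1, whose products degrade Jun, at 0.65 ± 0.21 and 0.52 ± 0.17. On all 8 arrays they stood at 0.13 ± 0.43 and 0.27 ± 0.24, with hyperthyroid 5 the lowest array for both (60.8 and 406.9). The 17 tested AP-1 targets had a median of -0.22 on all 8 arrays, with 6 higher and 11 lower. At an unadjusted p under 0.05 there were 0 higher and 1 lower, the quinone reductase Nqo1 at -0.43 ± 0.20 (adjusted p = 0.432), which was -0.29 ± 0.18 without hyperthyroid 5. Without hyperthyroid 5 there were 0 higher and 2 lower. They were the matrix protease Mmp2, at -0.82 ± 0.27 (-0.51 ± 0.34 on all 8 arrays), and the intermediate filament gene Vim, at -0.48 ± 0.20 (-0.41 ± 0.20 on all 8 arrays). Another tested Mmp2 probe set stood at 0.73 without hyperthyroid 5 and at 0.90 on all 8 arrays.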

How the data were processed

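RNA of 8 rats (4 hyperthyroid, 4 control), labelled as extraocular muscle, was hybridised to Affymetrix rat arrays. The authors' deposited values are linear intensity readings of each probe set, made with GCOS, the array maker's software, per the submitters' processing notes; its version and settings are not given in the sources used here. On each array the 2% trimmed mean was 150.05 to 150.06, so these had been scaled before deposit. The 57 manufacturer controls were left out of the tests. Values under 1 (0.669% of all) were set to 1 and taken to log2, and the upper 60% of probe sets by mean log2 signal were tested with limma 3.58.1 in R 4.3.3 (lmFit, eBayes with trend, two-sided, Benjamini-Hochberg over 18625 probe sets, threshold 0.05). Single values were compared by exact permutation of the arrays. The fits were also run on simulated arrays with known changes and independent noise for each probe set. The simulation held no array set apart from the rest, so it could not show how such an array affects the calls. In gene lists the brightest probe set stood for its gene. All members were named, and from each gene list up to 3 genes with the smallest unadjusted p under 0.05, or the 1 with the smallest p. Members, lists and the fit without hyperthyroid 5 were chosen with earlier results of these data known. Separate rats were the replicates, and the number of arrays limits the precision.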

Additional observations from a re-analysis of the deposited data

Results flagged for a closer look

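Among 32 groups of 4 arrays looked at (16 member probe sets in 2 groups), 1 array lay far from the others of its group. The Fosl2 probe set 1387530_a_at had a signal of 11.1 on control 9, against 47.7 to 53.5 on the other 3 controls. Chance alone puts about 1 group in 20 past this limit, and the probe set lies below the filter on dim signal.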

How the results depend on the processing

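No paired analysis was possible because the groups share no replicate number. On all 8 arrays the count of called probe sets was 6 with array weights, 8 with the Gapdh ratio as a covariate and 0 to 29 when 1 array was left out, with 29 only without hyperthyroid 5, and 0 under the other alternatives. Jund kept its direction under all 20 alternatives there. It passed with array weights (0.82, adjusted p = 0.0276 in limma), without hyperthyroid 5 (adjusted p = 0.0166; 0.77 to 0.86 over single arrays left out) and without hyperthyroid 2 and 5 (0.88, adjusted p = 0.0382), a fit chosen after seeing the data. The Jun probe set 1374404_at, at 0.00, turned to -0.031 with quantile normalization, -0.12 and -0.043 with median centring over all and over tested probe sets, -0.14 with array weights and -0.23 without hyperthyroid 2 and 5, and lay between -0.15 and 0.13 with 1 array left out. Ier2 turned to -0.26 without hyperthyroid 2 and 5. Without hyperthyroid 5 the count of 29 became 315 and 53 with those centrings, 71 with no filter, 85 at the upper 40%, 78 with 32 added before log2, 0 without a trend, 1 with the Gapdh covariate, 10 with 1 probe set per gene, 204 at an adjusted p under 0.1 and 0 to 144 with a further array left out. Jund there was lost without a trend (0.86) and with the Gapdh covariate (0.80), and ranged from 0.81 to 0.90 with a further array left out, lost without hyperthyroid 1, control 8, 9 or 11. The cause was not tested. The centring over tested probe sets and the count per gene were also chosen after seeing the data. The 6 dim member probe sets lay below the filter and were not tested. Among them, the Fosl2 probe set 1387530_a_at fell below it only through its low hyperthyroid arrays.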
